A study of Drosophila melanogaster with 12 samples.

Results

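Sps2 encodes selenophosphate synthetase 2, the enzyme that activates selenium so that selenocysteine, the amino acid that defines selenoproteins, can be built. The question taken up here is whether its knockdown went with different transcript changes in adult and in larval fruit flies (Drosophila melanogaster). The stage difference was defined for every transcript as the adult effect (adult knockdown minus adult wild type) minus the larval effect (larval knockdown minus larval wild type), on the log2 scale. It used all 12 arrays of the study, 3 in each of the 4 groups, and was computed for the 12827 probe sets that passed a filter on low values, of 18769 probe sets that are not controls. Probe sets with 1 gene symbol stood for 10426 genes.

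The arrays were Affymetrix Drosophila genome arrays hybridised with biotin-labelled cRNA from a 3' in vitro transcription kit. The groups were adult flies with SPS2 knockdown, adult wild type, larvae with SPS2 knockdown and larval wild type, and the labels name every array a biological replicate. All animals ate food made of cornmeal and yeast. The driver and construct of the knockdown, the wild-type line, sex, age, larval instar and body part are not given in the labels, nor is whether an array held pooled animals.

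Insects use few selenoproteins, and much of their redox control rests on thioredoxins, glutathione transferases and cysteine-containing relatives of mammalian selenoproteins. Larva and adult are built of different tissues. The larva is mostly fat body, gut, muscle, salivary gland and cuticle-forming epidermis, and its gonads are small. The adult carries mature testes or ovaries, reproductive glands, eyes and a changed gut. In RNA from mixed tissues, fewer cells of a type and less RNA per cell cannot be told apart, and this holds for every value below.

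Markers of the stages were checked first. The 21 genes of phototransduction had a median wild-type level of 8.69 in adults and 6.07 in larvae (log2 signal), and the 25 yolk and eggshell genes 12.49 and 4.04. Names such as ninaE, norpA and Rh3 matched no single gene here and are missing from the phototransduction list. Male accessory gland genes stood at a median of 10.49 in adults and 3.16 in larvae, so the adult RNA held transcripts of both male and female reproductive tissue. The larval serum protein gene Lsp2 was high in wild-type larvae, though unevenly, as described below. Sps2 itself was lower on all knockdown arrays of both stages, with an adult effect of -2.80 and a larval effect of -2.31, and the stage difference of -0.49 (standard error, SE, 0.17) was not called (limma adjusted p = 0.0648).

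The larval arrays scattered more than the adult ones. The median SD over the tested probe sets was 0.113 with knockdown and 0.101 without in adults, against 0.174 and 0.175 in larvae. The fit pooled these spreads, and with each stage fitted alone the difference was called for 2278 genes in place of 2286. Of the 2286 calls, 2111 were kept there in the same direction. On simulated arrays with spreads unequal between stages, the share of false calls of the pooled fit was above the nominal one. Few probe sets were changed there, all in adult knockdown, so the size of that share does not carry over to the calls here. Control probe sets for the 3' and 5' ends of a transcript, which reflect how complete the RNA and cRNA were, differed by 2.44 ± 0.07 in knockdown and 2.42 ± 0.07 in wild-type adults, and by 3.70 ± 0.06 and 3.51 ± 0.11 in larvae (log2, SD over 3 arrays). Its part in the results was not tested.

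The knockdown effect differed between stages for 2286 of 10426 genes (21.9%), at a limma adjusted p under 0.05. The difference was positive, meaning that the effect was higher in adults than in larvae, for 852 genes (8.17%), and negative for 1434 genes (13.8%). At least 2-fold differences were positive for 169 genes (1.62%) and negative for 641 genes (6.15%). The median difference over all genes was -0.07, and the median size among called genes was 0.74. The balance of directions moved with the scaling of the arrays: positive differences were 37.3% of the called genes as deposited, 47.2% after quantile normalization, 58% when arrays were centred on the median of the tested probe sets and 84% when they were centred on the median of all probe sets. The last of these moved the median difference of all genes by 0.37, and the centring on tested probe sets by 0.11, so small differences are best read against the median of all genes. Effects within a stage move too. The medians of all probe sets were 6.369 to 6.48 in adult knockdown and 6.688 to 6.775 in adult wild type. In larvae they were 6.028 to 6.16 with knockdown and 5.952 to 6.036 without. Small adult falls and small larval rises given below therefore depend on the scaling.

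Called differences were sorted by the stage at which an effect was called. For 857 genes only the adult effect was called, 342 of them higher and 515 lower in the adult knockdown. For 766 genes only the larval effect was called, with 495 higher and 271 lower in the larval knockdown. Effects of opposite direction were called at both stages for 295 genes, of which 208 were lower in adults and higher in larvae and 87 the reverse. For 190 genes both effects had the same direction, the larger being the adult one for 96 genes and the larval one for 94. The remaining 178 genes had a called difference with neither effect called by itself. With each stage fitted alone, adult effects only were called for 1233 genes and larval effects only for 430, so that split depends on whether the stages share 1 estimate of the spread. The counts of opposite genes were as low as 111 and 51 without adult knockdown replicate 2, and 111 and 53 without adult wild-type replicate 3. The balance also turned with the scaling: 43 were lower in adults and 406 higher under centring on all probe sets, and 142 and 181 with centring on the tested ones. Conversely, of the 1309 genes called at both stages (12.6% of all), 538 (5.16%) had a 95% interval of the difference lying wholly within 0.5 of 0. That count was made on the deposited scale alone. Centring on all probe sets moves every difference, by 0.37 for the median of all genes.

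**Figure D1:**
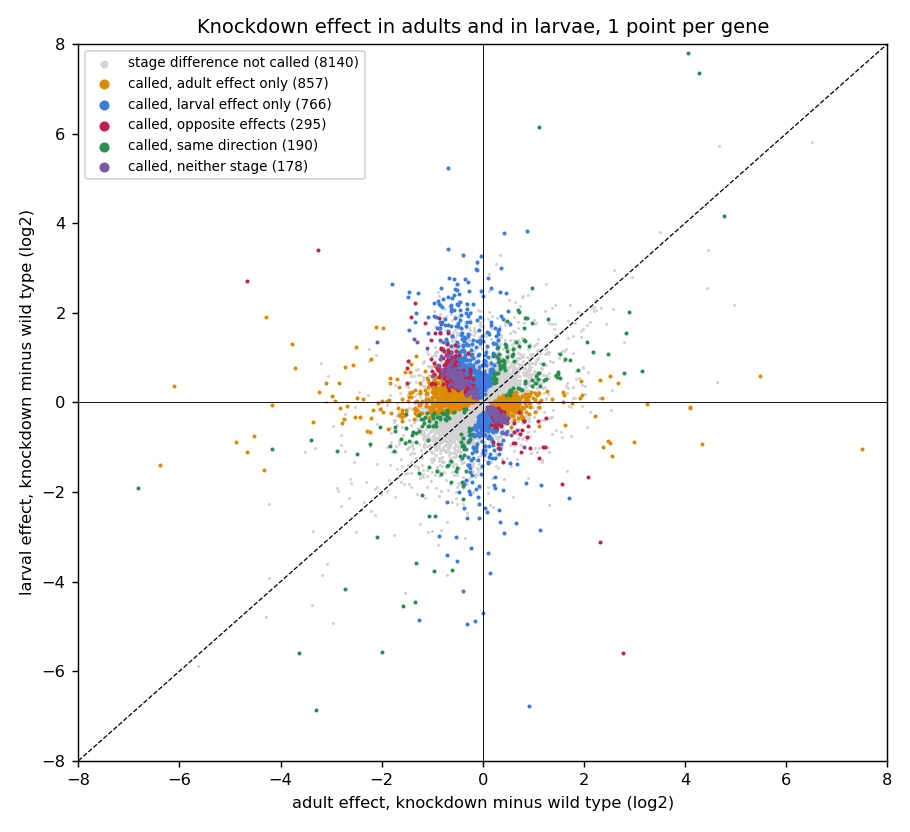
The adult effect (horizontal, log2) is set against the larval effect (vertical, log2) for each of the 10426 genes, with the dashed line where both are equal and colours for the pattern of calls. Genes with opposite effects (295, red) lie mostly in the upper left on the deposited scale (208, with the adult effect below 0 and the larval one above it), which turned to 43 against 406 in the lower right when arrays were centred on the median of all probe sets, and 857 genes spread along the horizontal axis and 766 along the vertical one.

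Among genes with a name and a highest group mean of at least 8.07 (log2 signal), the largest called positive differences were those of LysX, Lsp2 and Fbp2. Lsp2 encodes a serum storage protein that the fat body makes late in larval life. Its arrays read 10.64, 10.55 and 10.45 in adult knockdown against 7.81, 7.15 and 8.37 in adult wild type, and 7.81, 6.99 and 6.28 in larval knockdown against 9.78, 14.08 and 14.02 in larval wild type. The groups did not overlap at either stage, but larval wild-type replicate 1 stood more than 4 log2 units below the other larval wild-type arrays. The adult effect was 2.77 and the larval effect -5.60, giving a difference of 8.37 (SE 1.25, limma adjusted p = 0.00101), with a range of 7.64 to 9.79 when any 1 array was left out.

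Fbp2, another fat body protein gene of the late larva, followed the same order in larvae. It read 5.44, 4.90 and 4.04 in larval knockdown against 8.32, 13.03 and 13.39 in larval wild type, and its means lay below the 40th percentile of the arrays in both adult groups and in larval knockdown, where 1 array was above it. Here and below, a group is placed against that percentile by its mean. The low wild-type array was again replicate 1, and the larval groups did not overlap. The difference was 7.70 (SE 1.57, limma adjusted p = 0.00581), or 6.08 with values below the 40th percentile raised to it. These 2 genes were all that could be tested of the fat body list, and their summed linear signal ran from 94.1 to 269 in knockdown larvae and reached 1201 to 27320 in wild-type larvae.

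Larval effects alone carried several other large differences. Cyp9b2, a cytochrome P450 of detoxification, read 13.83, 14.03 and 13.88 in larval wild type and 10.24, 10.10 and 10 in larval knockdown, a 13.9-fold fall. In adults its arrays overlapped, at 10.33, 10.28 and 10.40 with the knockdown and 10.08, 10.11 and 10.40 without. The difference of 3.94 (SE 0.13, limma adjusted p = 3.71e-09) stayed between 3.88 and 4.04 when any array was left out. In larval wild type alone, then, Cyp9b2 stood apart from the other groups.

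Alp7, an alkaline phosphatase, had 11.61, 11.75 and 11.76 in larval wild type against 6.42, 6.67 and 7.41 in larval knockdown, and lay below the 40th percentile in both adult groups (difference 4.73, SE 0.35). The cuticle protein genes Cpr67Fa2 and Cpr49Ad had the same layout, with larval effects of -4.95 and -4.86 and adult levels below the 40th percentile. Bace, an aspartic protease, was high in adults with and without knockdown (13.05 to 13.65), whereas larvae read 5.74, 5.41 and 5.56 with the knockdown against 8.66, 9.34 and 11.35 in wild type. Its difference was 3.82 (SE 0.67), and without 1 array it ranged from 3.04 to 4.39. All 4 of these genes fell in larvae, and none had a called adult effect.

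Adult effects carried the remaining large positive differences. LysX, a lysozyme of the type that digests bacteria in the gut, read 8.50, 10.14 and 11.17 in adult knockdown against 3.19, 2.5 and 1.60 in adult wild type. Its larval arrays overlapped, at 3.27, 5.52 and 6.02 with the knockdown and 5.84, 6.16 and 5.95 without. The difference was 8.55 (SE 1.05, limma adjusted p = 0.000295), and 4.98 with low values raised to the 40th percentile, which moved all adult wild-type arrays and larval knockdown replicate 1. Ser12, a serine protease, and Cda9, a chitin deacetylase, also rose in adults with overlapping larval groups (differences 4.89, SE 1.17, and 4.21, SE 0.45), and these were 3.57 and 1.51 on the raised values. LysX and LysP belong to a family of close relatives, and whether their probes hybridise with other members was not tested.

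Among the largest negative differences, chosen in the same way, most came with an adult fall. Obp51a, of the odorant-binding protein family, read 7.14, 6.99 and 8.64 in adult knockdown against 11.93, 11.95 and 11.76 in adult wild type, while the larval groups were below the 40th percentile. Its difference was -6.20 (SE 0.99, limma adjusted p = 0.00148), or -4.39 on the raised values. Send2, an endopeptidase gene of the female sperm-storage organs, read 6.52, 5.34 and 6.07 against 8.50, 10.57 and 10.19 in adults, with larvae again below the 40th percentile (difference -5.08, SE 0.77). For both genes the adult groups did not overlap.

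Transcripts of mol, whose product helps the hydrogen-peroxide-producing dual oxidase to mature, were measured well at both stages. They read 6.55, 6.39 and 5.77 in adult knockdown against 10.41, 10.48 and 10.31 in adult wild type, and 9.46, 9.29 and 8.79 against 9.53, 9.27 and 8.90 in larvae. The adult fall was 17.9-fold and the larval groups overlapped, so that the difference was -4.11 (SE 0.31, limma adjusted p = 1.17e-05). Ugt35B1, a UDP-glycosyltransferase, fell at both stages, by 6.83 in adults and by 1.92 in larvae, giving a difference of -4.91 (SE 0.69).

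The other large negative differences were smaller or rested on low values. Hesr (-3.73, SE 0.91) and Obp57b (-3.40, SE 0.89) fell in adults and were below the 40th percentile in larvae. Jig (-3.26, SE 1.05, limma adjusted p = 0.0453) rose in larvae and lay below it in adults, and its call was lost under 13 of the 23 alternative settings. Cpr65Ec (-3.17) and Muc12Ea (-3.08) changed to -1.15 and -0.64 on the raised values, and the call for Muc12Ea was then lost (adjusted p = 0.15). The carboxylesterase alpha-Est2 rose at both stages, by 4.28 in adults and 7.35 in larvae (difference -3.07, SE 0.78), from wild-type levels below the 40th percentile. On the raised values its difference was -1.87.

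**Figure D2:**
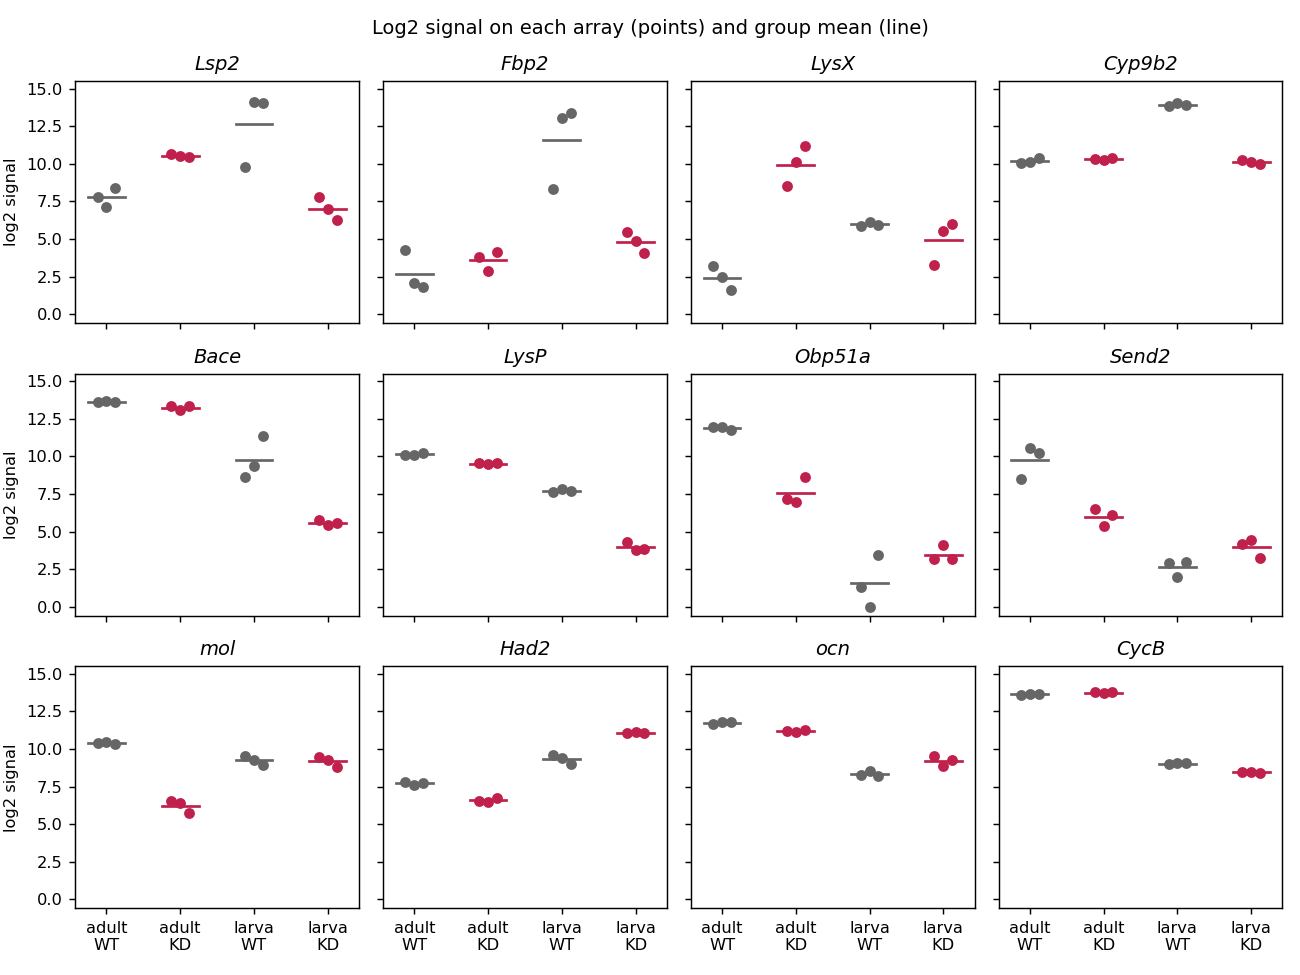
Each panel shows the log2 signal of 1 gene on the 12 arrays (points) with the group mean (line), wild type (WT) in grey and knockdown (KD) in red. Lsp2, Fbp2, Cyp9b2, Bace and LysP fall in larvae, LysX rises and Obp51a, Send2 and mol fall in adults, and Had2 and ocn move in opposite directions at the 2 stages.

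Genes with opposite effects included Lsp2 and several of small but even change. Had2, of the hydroxyacid dehydrogenase family, had the largest difference of the 12 genes named for this pattern. It read 6.53, 6.47 and 6.72 in adult knockdown against 7.83, 7.62 and 7.72 in adult wild type, and 11.08, 11.13 and 11.03 in larval knockdown against 9.58, 9.37 and 8.98 in larval wild type. That is a 2.22-fold fall in adults and a 3.41-fold rise in larvae, with a difference of -2.92 (SE 0.19, limma adjusted p = 4.24e-06) and no overlap of groups at either stage.

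Pepck2, one of the phosphoenolpyruvate carboxykinases of gluconeogenesis, had the same pattern. Adult knockdown read 6.08, 6.31 and 6.33 against 7.08, 7.27 and 7.19, and larval knockdown 10.70, 10.40 and 10.08 against 8.57, 9.13 and 8.86. The difference was -2.48 (SE 0.24, limma adjusted p = 6.34e-05). LManII, a lysosomal alpha-mannosidase, fell by 0.29 in adults and rose by 1.10 in larvae. The transcription factor gem (-0.56 and 0.45), the growth factor Idgf2 (-0.57 and 0.38) and the glutathione transferase GstE9 (-0.26 and 0.74) were likewise lower in adults and higher in larvae. A second, dimmer probe set of GstE9 read -2.90 in adults and -1.78 in larvae, so the probe sets of that gene disagreed on the larval direction.

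In the reverse direction, RPA1 encodes the large subunit of the single-strand DNA binding complex of replication. It read 12.04, 12.08 and 11.96 in adult knockdown against 11.84, 11.90 and 11.74, and 9.18, 9.15 and 9.23 in larval knockdown against 10.05, 10.01 and 10.15. The groups did not overlap, and the difference was 1.09 (SE 0.08, limma adjusted p = 1.17e-05), from an adult rise of 0.20 and a larval fall of 0.88. The cysteine protease CtsK1 (0.24 and -0.55), the nucleoside triphosphatase NTPase (0.49 and -0.35), the lipid scramblase scramb1 (0.71 and -0.22), nom (1.25 and -0.35) and tay (0.30 and -0.92) also rose in adults and fell in larvae. Their differences lay between 0.80 and 1.60.

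Where both stages moved the same way, the sizes could still differ. LysP fell by 0.61 in adults, from 10.10, 10.08 and 10.20 to 9.57, 9.46 and 9.53, and by 3.75 in larvae, from 7.61, 7.84 and 7.72 to 4.31, 3.80 and 3.81. That made a difference of 3.14 (SE 0.19, limma adjusted p = 3.1e-06), or 1.86 on the raised values, as larval knockdown was below the 40th percentile. GstE5, a glutathione transferase, fell 6.59-fold in adults and 17.9-fold in larvae (difference 1.44, SE 0.16), and the P450 gene Cyp28a5 1.31-fold and 3.63-fold (1.47, SE 0.13). The larval rise of cal1, a loading factor of centromeric chromatin, was 1.06 and its adult rise 0.20.

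Larger adult than larval falls were seen for Jon66Ci, a digestive serine protease (-3.40 and -0.84), for the sterol-binding family member Npc2d (-1.11 and -0.23), for the alkaline phosphatase Alp6 (-0.97 and -0.24) and for salt (-1.25 and -0.27). Jon66Ci read 4.28, 4.15 and 4.81 in adult knockdown against 8.05, 7.83 and 7.56 in adult wild type, and stayed above 13 on every larval array. The larval groups of Jon66Ci did not overlap either.

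Some strong effects were close in size at both stages. Cyp28d1, a P450 gene, read 11.20, 11.45 and 11.40 in adult knockdown against 9.15, 9.05 and 9.17, and 11.33, 11.35 and 11.34 in larval knockdown against 8.84, 9.18 and 9.11. The rises were 4.68-fold and 4.91-fold, and the 95% interval of the difference ran from -0.34 to 0.20. Cbp80, a subunit of the nuclear cap-binding complex (1.68 and 1.81), the adenylate kinase Adk3 (1.59 and 1.61) and Fbxl4 (1.24 and 1.10) rose at both stages. Pax, the adhesion adaptor paxillin (-1.48 and -1.43), and pros, the neural differentiation factor prospero (-1.32 and -1.24), fell at both. After quantile normalization the difference of Cyp28d1 was 0.80, so its closeness depended on the scaling. Under centring on all probe sets the differences of all these genes ran from 0.24 (Cbp80) to 0.51 (Fbxl4). Their intervals were not recomputed there, so the closeness is given for the deposited scale only. A dimmer probe set of Cbp80 read 0.85 in adults and 0.34 in larvae.

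Of the 9 genes of the selenoprotein machinery, 0 had a stage difference called by limma, against 21.9% of all genes, and 1, Sps2, had an unadjusted p under 0.05, as did 36.2% of all genes. Their median difference was 0.01. SelT, a relative of mammalian selenoprotein T, fell by 0.47 in adults and 0.53 in larvae, and the 95% interval of its difference ran from -0.09 to 0.22. SelG fell by 0.43 and 0.62, with an interval from -0.03 to 0.40. BthD, SelR, Sbp2, SecS, Secp43 and eEFSec had differences between -0.15 and 0.22. Sps2 was called under 4 of the 23 alternative settings (limma adjusted p = 0.0479 on the raised values). Sbp2, SelG, SelR and SelT were called, at 0.43 to 0.59, under centring on all probe sets.

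Each list below is read against all genes, of which 21.9% were called, 8.17% positive and 13.8% negative, with a median of -0.07. Of all genes, 55.6% had a difference below 0. Centring on all probe sets changed the sign of 15 of the 36 list medians, and the lists it turned are named below with their values. That centring shifts every difference by the same amount. On it the median of all genes was 0.30, and 3298 of the 10426 genes were called positive and 628 negative. List values given on that centring are to be read against these. The testis lists had the median differences that lay farthest below that of all genes, among the lists with more than 4 genes tested. Their shares of calls were unlike each other. Spermatids build the sperm tail, its mitochondrial derivatives and a compact protamine-bound nucleus from transcripts made mostly in spermatocytes. Of 38 genes of spermatid and sperm structure, 21 had a called negative difference and 1 a called positive one (57.9% called, against 21.9% of all genes). The median adult effect was -0.55 and the median larval effect 0.55, which gave a median difference of -1.12 against -0.07 for all genes. The adult effect was below 0 and the larval effect above it for 32 of the 38 genes, compared with 27.4% of all genes. These opposite medians had already been seen when the list was chosen, so the counts describe the list and are no independent support.

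The members named by the smallest p show this array by array. Mst84Dc encodes a protein of the sperm tail. It read 11.09, 10.95 and 11.22 in adult knockdown against 11.51, 11.66 and 11.72, and 9.0, 8.38 and 8.54 in larval knockdown against 7.87, 7.88 and 8.04. Both pairs of groups stayed apart, in opposite directions. The difference was -1.26 (SE 0.19, limma adjusted p = 0.00101).

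For ocn, a testis gene, adult knockdown read 11.21, 11.11 and 11.28 against 11.67, 11.78 and 11.81, and larval knockdown 9.52, 8.87 and 9.28 against 8.26, 8.55 and 8.19 (difference -1.44, SE 0.20). A relative of dj, djl, fell by 0.72 in adults and rose by 0.52 in larvae. Mst87F, another sperm tail gene, fell by 1.25 in adults and had a larval effect of 0.42 that was not called. Within a stage the knockdown and wild-type arrays of all 4 genes were apart. The Mst84D genes are close relatives, and cross-hybridisation between them was not tested.

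Summed over the list, the linear signal of spermatid genes was 23140 to 27300 with knockdown against 35510 to 40210 in wild-type adults, and 4722 to 6839 against 3926 to 4798 in larvae. The larval ranges overlapped, and the adult ones did not. In both larval groups 9 of the 38 genes were below the 40th percentile of the array. The list kept a median of -0.76 and 18 negative calls under centring on all probe sets, and 16 to 23 negative calls over all settings.

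The 16 regulators of the meiotic arrest class, which switch on the spermatocyte programme, had 0 called differences by limma on the deposited values, 8 at an unadjusted p under 0.05, and a median of -0.57. The nearest to the threshold were comr (-1.34, SE 0.49, limma adjusted p = 0.0703) and mia (-0.57, SE 0.21, adjusted p = 0.0739), and 14 of the 16 lay below 0. On the raised values both were called (comr -0.62, adjusted p = 0.0185, and mia -0.57, adjusted p = 0.0457), and the list had 0 to 6 negative calls over the settings. Their summed signal was 781 to 906 in knockdown adults against 768 to 876 in wild-type adults, with 9 and 6 genes below the 40th percentile, and in larvae 1575 to 2154 against 1255 to 1446. Testis-specific copies of proteasome subunits had 2 negative calls of 11 (18.2%, against 21.9% of all genes called) and a median of -0.84. Rpn12R was one of them (-1.13, SE 0.28), with an adult fall of 0.80, and Prosbeta5R1 the other (-2.48, SE 0.69), which was -0.85 on the raised values.

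Most reproductive genes outside the testis lists had low larval levels. Of 32 male accessory gland genes, which encode seminal proteins, 4 had a negative difference and 0 a positive one (12.5% called, median -0.48), and 1 to 10 negative ones over the settings. Larval levels were below the 40th percentile for 30 of the 32 genes in wild type, so their larval effects have little signal behind them. The ones named were msopa (-2.36), aqrs (-1.57), lectin-46Cb (-1.18) and Acp53C14c (-2.26, limma adjusted p = 0.0492), and the calls for all but msopa were lost under 5 to 19 settings. Yolk, eggshell and oogenesis genes had 3 negative and 1 positive calls of 25 (16%), with a median of -0.31 that turned to 0.06 under centring on all probe sets. In larval wild type 17 of the 25 were below the 40th percentile. Among the negative calls, Cad74A and grk were well measured in larvae. Cad74A had larval means of 8.49 with knockdown and 8.66 without. It fell by 0.79 in adults (difference -0.62, SE 0.15), and its call was lost under centring on all probe sets. The larval means of grk were 9.01 with knockdown and 8.60 without. This gene rose by 0.42 in larvae, its adult effect was 0.02, and its call was lost under 7 settings. Yp3, a yolk protein, was the positive call. Its adult effect of 0.12 was not called (13.99, 13.91 and 13.98 against 13.83, 13.88 and 13.80), and it fell in larvae from 8.11, 8.92 and 8.32 to 7.01, 7.35 and 7.33 (difference 1.34, SE 0.23).

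**Figure D3:**
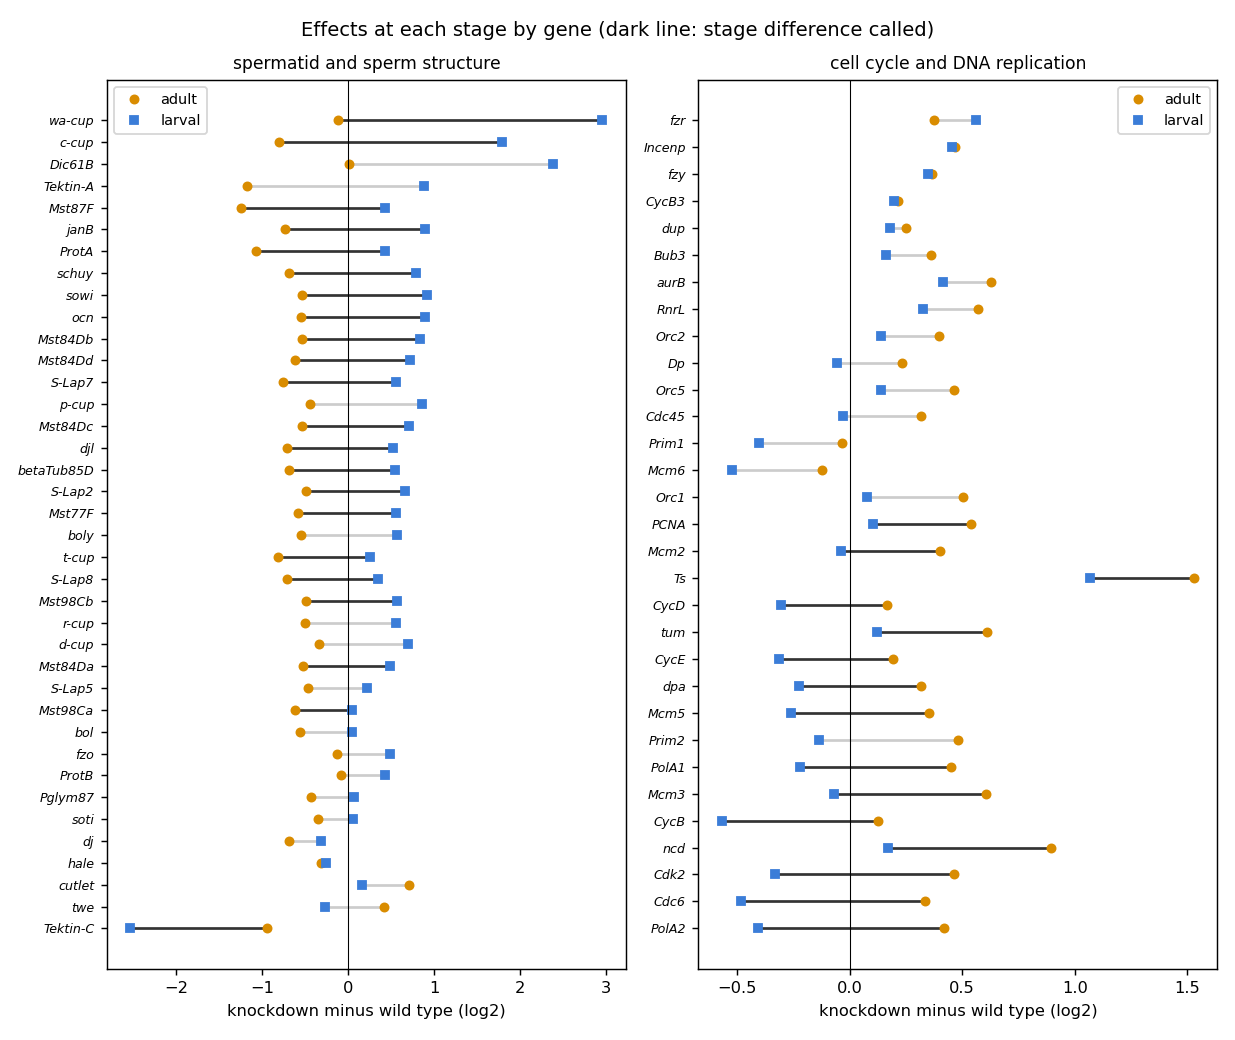
Adult (circle) and larval (square) effects in log2 for each gene of 2 lists, with a dark line where the stage difference was called. Of 38 spermatid genes, 32 have the adult effect left of 0 and the larval effect right of it, and 30 of 31 cell cycle genes have the adult effect to the right of the larval one.

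Cell cycle and DNA replication genes stood at the other end. Of 31 genes, 15 had a called positive difference and 0 a negative one (48.4%), with 11 to 28 positive ones over the settings, and 30 of 31 differences were above 0. The median difference was 0.43, from a median adult effect of 0.40 and a median larval effect of -0.03. In adults 19 of the 31 genes rose and 0 fell, and in larvae 6 rose and 7 fell. Among all genes, adults showed a rise in 14.2% and a fall in 16.2%, and larvae a rise in 15.8% and a fall in 11%. The wild-type levels also differed between stages, with a median of 10.33 in adults and 7.75 in larvae (log2 signal).

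CycB, the mitotic cyclin B, read 13.79, 13.69 and 13.75 in adult knockdown against 13.57, 13.65 and 13.63 in adult wild type, an effect of 0.12 that was not called. In larvae it read 8.49, 8.45 and 8.42 against 8.99, 9.04 and 9.05, a fall of 0.57 with no overlap. The difference was 0.69 (SE 0.06, limma adjusted p = 4.44e-05). PCNA, the sliding clamp of DNA polymerase, differed through its adult values, 12.58, 12.61 and 12.56 against 12.10, 12.04 and 12.00, with overlapping larval groups (difference 0.43, SE 0.07). The origin-licensing gene Cdc6 rose by 0.34 in adults and fell by 0.48 in larvae, and the helicase subunit Mcm3 rose by 0.61 in adults (difference 0.68, SE 0.13). RPA1, described above, moved in the same directions as Cdc6. The sum of the list was 68460 to 72450 against 55120 to 56700 in adults, and 8758 to 9386 against 8797 to 8977 in larvae.

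Proteasome genes had 4 positive and 1 negative calls of 26 (19.2%), with a median of 0.13 and 23 of 26 differences above 0. In adults 17 of the 26 genes rose, against 14.2% of all genes. The positive calls moved with the scaling, to 11 after quantile normalization, 16 with centring on the tested probe sets and 24 under centring on all probe sets. The subunits Rpn11 (0.20), Rpn13 (0.31), Prosbeta3 (0.18) and Rpn5 (0.18) differed by small amounts, and each of these calls was lost under at least 12 of the 23 settings.

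Calls for mitochondrial genes were mostly negative on the deposited scale. Respiratory complex I had 3 negative and 0 positive calls of 31 (9.68%), with a median of -0.14, and complexes II to V had 15 negative and 0 positive calls of 45 (33.3%), with a median of -0.19. Under centring on all probe sets these medians turned to 0.23 and 0.18, with 13 positive calls for complex I and 16 positive and 5 negative for the others. The sign of these medians thus depends on the scaling. Both lay below the median of all genes, which was -0.07 as deposited. On that centring it was 0.30, and the order cannot change because every difference shifts by the same amount. The most significant subunits of complex I were ND-B14.7 (-0.31), ND-18 (-0.25) and ND-B16.6 (-0.26), and UQCR-14 of complex III was -0.26. As deposited, each of these 4 fell in adults by 0.18 to 0.34 with no called larval effect. Each difference turned positive under centring on all probe sets, which raises adult effects as well.

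The respiratory lists also hold paralogues whose symbol ends in L, many of which are transcribed in testis. Taken apart after their values had been seen, these 21 genes had a median difference of -0.88, with 19 below 0 and 6 called, all negative. The other 55 subunits had a median of -0.13 and 12 negative calls. Cyt-c1L read 7.71, 7.54 and 7.74 in adult knockdown against 8.11, 8.12 and 8.26, and 8.34, 8.09 and 8.29 in larval knockdown against 7.67, 7.76 and 7.62. It fell in adults and rose in larvae, and the difference was -1.06 (SE 0.15, limma adjusted p = 0.000738). COX7AL did the same (-0.69 and 0.88, difference -1.57), and COX5BL had a called rise of 1.00 in larvae and an adult effect of -0.57 that was not called.

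Mitochondrial ribosomal proteins translate the mitochondrial genome. Of 69 such genes, 21 had a negative and 2 a positive difference (33.3% called), with a median of -0.26, a median adult effect of 0.06 and a median larval effect of 0.31. In larvae 46 of the 69 genes rose and 3 fell, against 15.8% and 11% of all genes. In adults 13 rose and 3 fell, against 14.2% and 16.2%. For mRpS16 the adult groups overlapped (10.36, 10.31 and 10.42 against 10.38, 10.48 and 10.36), and the larval ones did not (10.95, 11.06 and 11.13 against 10.64, 10.32 and 10.51), with a difference of -0.60 (SE 0.11, limma adjusted p = 0.00334). mRpL18 rose at both stages, by 0.22 and 0.65, and mRpL13 rose by 0.43 in larvae. mRpS5 went the other way, up by 0.24 in adults and down by 0.15 in larvae. The list median turned to 0.10, with 6 positive and 0 negative calls, under centring on all probe sets.

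Of 32 cytosolic ribosomal protein genes 4 had a negative and 0 a positive difference (12.5%), and the median was -0.10, against 23 positive calls and a median of 0.27 with arrays centred on all probe sets. The called genes were RpLP0 (-0.22), RpL34a (-0.22), RpS12 (-0.18) and RpS30 (-0.15), all turning positive under centring on all probe sets. Aminoacyl-tRNA synthetases, which charge tRNAs for translation, had 4 negative and 1 positive calls of 30 (16.7%) and a median of -0.13, which became 7 positive calls and 0.24 on that centring. ArgRS and LysRS rose in larvae by 0.48 and 0.40, and CysRS rose in adults by 0.64 (difference 0.46, SE 0.11). TyrRS-m differed by -0.46, and its call was lost under 10 of the 23 settings. CysRS read 9.95, 9.92 and 9.82 against 9.40, 9.22 and 9.15 in adults, with no overlap.

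Heat shock proteins had 6 negative and 0 positive calls of 16 (37.5%), with a median of -0.26, and 15 of the 16 lay below 0. With arrays centred on all probe sets the calls were 3 negative and 3 positive and the median 0.11. Hsp68, a stress-inducible chaperone, read 6.96, 7.05 and 6.93 in adult knockdown against 7.53, 7.64 and 8.40, and 12.97, 12.75 and 12.96 in larval knockdown against 12.17, 12.54 and 11.77. It fell in adults and rose in larvae without overlap (difference -1.61, SE 0.30, limma adjusted p = 0.00362). Hsc70-2 (-1.13) and Hsp60C (-1.30) fell in adults, and Hsc70-5, a mitochondrial chaperone, rose by 0.28 in larvae (-0.52), a call lost on that centring.

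Antioxidant enzymes had 2 positive and 2 negative calls of 12 (33.3%), with a median of 0.12, and 6 positive and 1 negative under centring on all probe sets. TrxT, the thioredoxin of the testis, fell by 0.67 in adults and rose by 0.56 in larvae (difference -1.23, SE 0.20), which is the pattern of the spermatid genes. Sod3, the extracellular superoxide dismutase, rose by 0.34 in adults and fell by 0.32 in larvae (0.66, SE 0.15), though a dimmer probe set of it read 0.11 and 0.49. The thioredoxin reductase gene Trxr2 had a difference of -0.996 (SE 0.28), and its call was lost under 7 settings. Catalase, Cat, fell by 0.58 in larvae, from 11.55, 11.92 and 11.82 to 11.27, 11.17 and 11.11, and its difference of 0.37 lost its call under 14 settings.

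Each of 3 lists of detoxification genes had calls in both directions. Cytochrome P450 genes had 17 positive and 11 negative calls of 75 (37.3%), and the median difference was 0.03. In adults 27 of the genes fell and in larvae 31, against 16.2% and 11% of all genes. Of these P450 genes 16 fell at both stages, as did 506 of all 10426 genes. Besides Cyp9b2, the most significant were Cyp6a19, Cyp28a5 and Cyp4ac1. Cyp6a19 fell in adults from 12.17, 11.94 and 12.00 to 9.11, 9.06 and 9.17, and its larval arrays overlapped at 5.18 to 5.80. The difference was -2.96 (SE 0.24, limma adjusted p = 1.65e-05). Cyp4ac1 fell by 1.59 in adults with a larval effect of -0.16 that was not called (-1.43, SE 0.13).

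Glutathione transferases had 7 positive and 5 negative calls of 33 (36.4%), with a median of 0.19, or 17 and 1 under centring on all probe sets. GstD2 read 7.04, 6.36 and 6.61 in adult knockdown against 6.39, 6.32 and 6.28, and 10.53, 9.95 and 10.08 in larval knockdown against 12.38, 12.97 and 13.22. The larval fall was 6.38-fold and the adult groups overlapped (difference 3.02, SE 0.31, limma adjusted p = 9.53e-05). GstD1 rose by 0.24 in adults and fell by 0.29 in larvae. UDP-glycosyltransferases had 4 positive and 2 negative calls of 30 (20%) and a median of 0.11, or 9 and 1 on that centring. Ugt35C1 fell by 1.57 in adults and by 4.54 in larvae (2.96, SE 0.44), Ugt37A2 fell in larvae by 1.61, and Ugt316A1 rose by 0.40 in adults and fell by 0.30 in larvae.

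Digestive enzymes of the gut had 7 positive and 15 negative calls of 48 (45.8%), with a median of -0.17, but 14 positive and 4 negative calls and a median of 0.20 under centring on all probe sets. Besides Jon66Ci, iotaTry, a trypsin, fell by 1.25 in adults with overlapping larval groups (-1.0, SE 0.17). Jon66Cii, a relative of Jon66Ci, did the reverse: it fell by 2.11 in larvae, from 10.28, 10.75 and 10.46 to 8.48, 8.53 and 8.13, and overlapped in adults (2.01, SE 0.27). Of the lysozymes, 3 were tested and 2 had a positive difference, LysX and LysP, as described above.

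Immune recognition and antimicrobial peptide genes had 5 positive and 4 negative calls of 27 (33.3%), with a median of 0.07, or 0.44 with 7 positive and 2 negative under centring on all probe sets. The most significant were cact, the inhibitor of the Toll pathway (0.42, SE 0.06), and PGRP-LE, a peptidoglycan sensor (0.49, SE 0.08). PGRP-LA (-1.11) rose by 0.78 in larvae, and spz, the Toll ligand (0.41), rose by 0.61 in adults. A dimmer probe set of cact read -0.47 in adults and 0.05 in larvae, against 0.29 and -0.13 for the one used.

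Hemocyte genes had 2 positive and 7 negative calls of 19 (47.4%), with a median of -0.41, against 4 positive and 1 negative calls and a median of -0.04 under centring on all probe sets. The 2 positive calls were the prophenoloxidases of the crystal cells, which make melanin. PPO1 read 8.59, 8.68 and 8.55 in adult knockdown against 8.0, 7.88 and 7.70, and 9.67, 9.49 and 10.19 in larval knockdown against 10.47, 11.19 and 11.03. It rose in adults and fell in larvae without overlap (difference 1.86, SE 0.27, limma adjusted p = 0.000853), and PPO2 fell by 1.09 in larvae (0.96, SE 0.22). Among the 7 negative calls, Hml, the hemolectin of plasmatocytes, fell by 0.93 in adults and 0.43 in larvae (-0.50, SE 0.12), and srp, the GATA factor of blood and fat body, fell by 0.57 in adults (-0.58, SE 0.12). On that centring these differences were -0.14 and -0.21 and both calls were lost.

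Lipid storage and fatty acid oxidation genes had 3 positive and 9 negative calls of 29 (41.4%), with a median of -0.25, which turned to 0.12, with 9 positive and 3 negative calls, under centring on all probe sets. FASN1, the fatty acid synthase, read 12.61, 12.67 and 12.66 in adult knockdown against 13.15, 13.19 and 13.23, while larvae read 14.60, 14.67 and 14.76 against 14.61, 14.57 and 14.55. Adults fell and larval groups overlapped (difference -0.64, SE 0.06, limma adjusted p = 5.04e-05). Apoltp, a lipid transfer lipoprotein (-0.64 in adults), and Lsd-1, a perilipin of lipid droplets (-0.76), also fell in adults with no called larval effect. SREBP, the transcription factor of lipid synthesis, moved the other way, with a rise of 0.40 in adults and a fall of 0.42 in larvae.

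Insulin and growth signalling had 2 positive and 1 negative calls of 15 (20%), with a median of 0.02, and 5 positive and 0 negative under centring on all probe sets. The alpha-glucosidase gene tobi, named as a target of brain insulin, read 10, 10.48 and 10.31 in adult knockdown against 8.73, 8.61 and 8.74, and 5.35, 4.13 and 6.32 in larval knockdown against 6.74, 6.99 and 7.51. A 2.97-fold rise in adults and a 3.52-fold fall in larvae gave a difference of 3.39 (SE 0.58, limma adjusted p = 0.00216). Ilp8, the relaxin-like peptide of damaged discs, differed by 2.40 as deposited, but its larval means were below the 40th percentile and the difference was -0.04 on the raised values. S6k fell by 0.59 in adults (-0.44, SE 0.14), and that call was lost under 14 settings.

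Moulting is directed by ecdysone and juvenile hormone, and ends with new cuticle. Ecdysone and juvenile hormone genes had 5 positive and 1 negative calls of 29 (20.7%), with a median of 0.13, and 3 to 8 positive calls over the settings. The ecdysone receptor partner usp fell by 0.41 in larvae (0.67, SE 0.14). The metamorphosis factor br fell in larvae from 10.10, 10.54 and 10.30 to 9.58, 9.21 and 9.03 and overlapped in adults (0.87, SE 0.22). Hr78 rose by 0.24 in adults, and Eip63E rose by 4.77 in adults and 4.15 in larvae (0.62, SE 0.16). Cuticle proteins had 6 positive and 11 negative calls of 83 (20.5%) and 8 to 29 negative ones over the settings. Their median of -0.11 turned to 0.25 under centring on all probe sets, and 60 of the 83 were below the 40th percentile in adult wild type. Cpr62Bb rose 4.23-fold in larvae (-2.39, SE 0.29), whereas Cpr65Au fell by 1.41 (1.40, SE 0.21) and Lcp65Aa by 0.42. The adult means of Lcp65Aa were below the 40th percentile, and on the raised values its difference of 1.23 became 0.30 and was not called (adjusted p = 0.0911).

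The 4 testable glue and late salivary gland genes had 0 differences called by limma and 1 at an unadjusted p under 0.05. The nearest were ng3 (2.06, SE 0.85, limma adjusted p = 0.106) and Sgs5 (1.73, adjusted p = 0.167). On the raised values ng3 was called at 0.84 (adjusted p = 0.00345) and Sgs5 read -0.14, and the list had 0 to 2 positive calls over the settings. Their summed larval signal was 27290 to 34700 in the knockdown, below the 46630 to 48400 of wild type. The summed signals of the glue genes and of Lsp2 with Fbp2 were thus lower in larval knockdown without overlap. Both kinds of transcript change with larval age, and its part in the larval effects was not tested.

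V-ATPase subunits, which acidify organelles and drive transport in gut and tubules, had 7 negative and 0 positive calls of 31 (22.6%), with a median of -0.24, turning to 0.13, with 8 positive and 2 negative calls, under centring on all probe sets. Vha100-5 read 8.87, 8.97 and 9.15 in adult knockdown against 9.93, 9.77 and 10.06, and 11.84, 11.91 and 11.84 in larval knockdown against 11.66, 11.63 and 11.61 (difference -1.16, SE 0.11, limma adjusted p = 7.07e-05). Its adult fall was called and its larval effect of 0.23 was not, although neither pair of groups overlapped. Vha100-4 fell by 0.82 in adults (-0.64), and VhaM9.7-b and VhaSFD differed by -0.25 each. Malpighian tubule genes had 1 positive and 2 negative calls of 14 (21.4%), with a median of -0.01, or 5 and 1 and a median of 0.35 on that centring. The water channel Prip fell by 0.33 in larvae (0.34), and the phosphate transporter family member Picot fell by 1.08 in adults and 0.52 in larvae (-0.56). A dimmer probe set of Prip read -0.41 in adults and -0.26 in larvae.

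Muscle genes had 2 positive and 4 negative calls of 24 (25%), with a median of -0.08, and 13 positive and 0 negative with a median of 0.29 under centring on all probe sets. Act88F, the actin of flight muscle, fell by 0.49 in adults, from 9.03, 9.16 and 9.24 to 8.66, 8.74 and 8.56, and had a larval effect of 0.41 that was not called (-0.90, SE 0.20). Mlc2, a myosin light chain (-0.40), and Zasp66, a Z-disc protein (-0.30), fell in adults by 0.41 and 0.42. The call for Mlc2 was lost under 10 settings. The other probe sets of Zasp66 differed by 0.04 and -0.74. Mlp60A fell by 0.16 in adults and rose by 0.19 in larvae, but its dimmer probe set read 1.03 and 0.20, and under centring on all probe sets its difference was 0.01.

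Neuronal genes had 5 negative and 0 positive calls of 25 (20%), with a median of -0.27. Under centring on all probe sets there were 2 negative and 2 positive, with a median of 0.09, and the calls for nrv3, Gad1 and Snap25 were lost. The sodium pump subunit nrv3 (-0.50, SE 0.09) and Gad1, the enzyme of GABA synthesis (-0.55, SE 0.13), fell in adults by 0.47 and 0.44. Ddc, the enzyme of dopamine and serotonin synthesis that also serves the cuticle, rose by 1.05 in larvae (-1.41). The synaptic gene Snap25 differed by -0.47 with neither effect called, and its call was lost under 11 of the 23 settings. Phototransduction genes had 2 positive and 3 negative calls of 21 (23.8%), and their median of -0.22 turned to 0.15, with 0 negative calls, on the same centring. ninaD, a scavenger receptor for carotenoid uptake, fell 3.61-fold in larvae, from 12.28, 12.94 and 12.72 to 11.06, 10.58 and 10.75, and overlapped in adults (2.08, SE 0.28), and Cds fell by 0.30 in larvae. The retinoid-binding gene pinta fell by 1.06 in adults and 0.52 in larvae, and rdgC fell by 0.53 in adults, though its dimmer probe set read 0.23. The call for rdgC was lost under 9 settings.

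Odorant-binding protein genes had 1 positive and 9 negative calls of 38 (26.3%), with a median of -0.41, or -0.05 with 2 positive and 6 negative under centring on all probe sets. These small secreted carriers are made in antennae and in many other tissues. Obp99d fell in adults by 3.24 (-3.48, SE 0.40, or -1.89 on the raised values), and Obp44a by 0.68. Obp83cd fell by 0.54 in adults and rose by 1.29 in larvae. Obp99c rose at both stages, by 0.34 from 12.53, 12.49 and 12.48 to 12.82, 12.81 and 12.90 in adults, and by 0.93 from 12.80, 12.85 and 12.73 to 13.82, 13.63 and 13.73 in larvae, without overlap (-0.59, SE 0.07).

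Clock genes had 1 positive and 2 negative calls of 14 (21.4%, median 0.07), and sex determination genes 2 positive and 0 negative of 12 (16.7%, median 0.08). These became 4 and 0, and 6 and 0, under centring on all probe sets. Over the settings the sex determination list had 0 to 6 positive calls. The clock kinase dco rose by 0.22 in adults (0.25), the potassium channel slo differed by -0.79 with neither effect called, and the clock neuropeptide Pdf rose by 0.57 in larvae (-0.91). The splicing regulator tra rose by 0.43 in adults (0.38, SE 0.11). dsx, the sex-determining transcription factor, fell by 0.59 in larvae (0.78, SE 0.24), but its other probe set read -0.16 in adults and -0.21 in larvae. The call for dsx was lost under 11 settings and that for tra under 8.

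**Figure D4:**
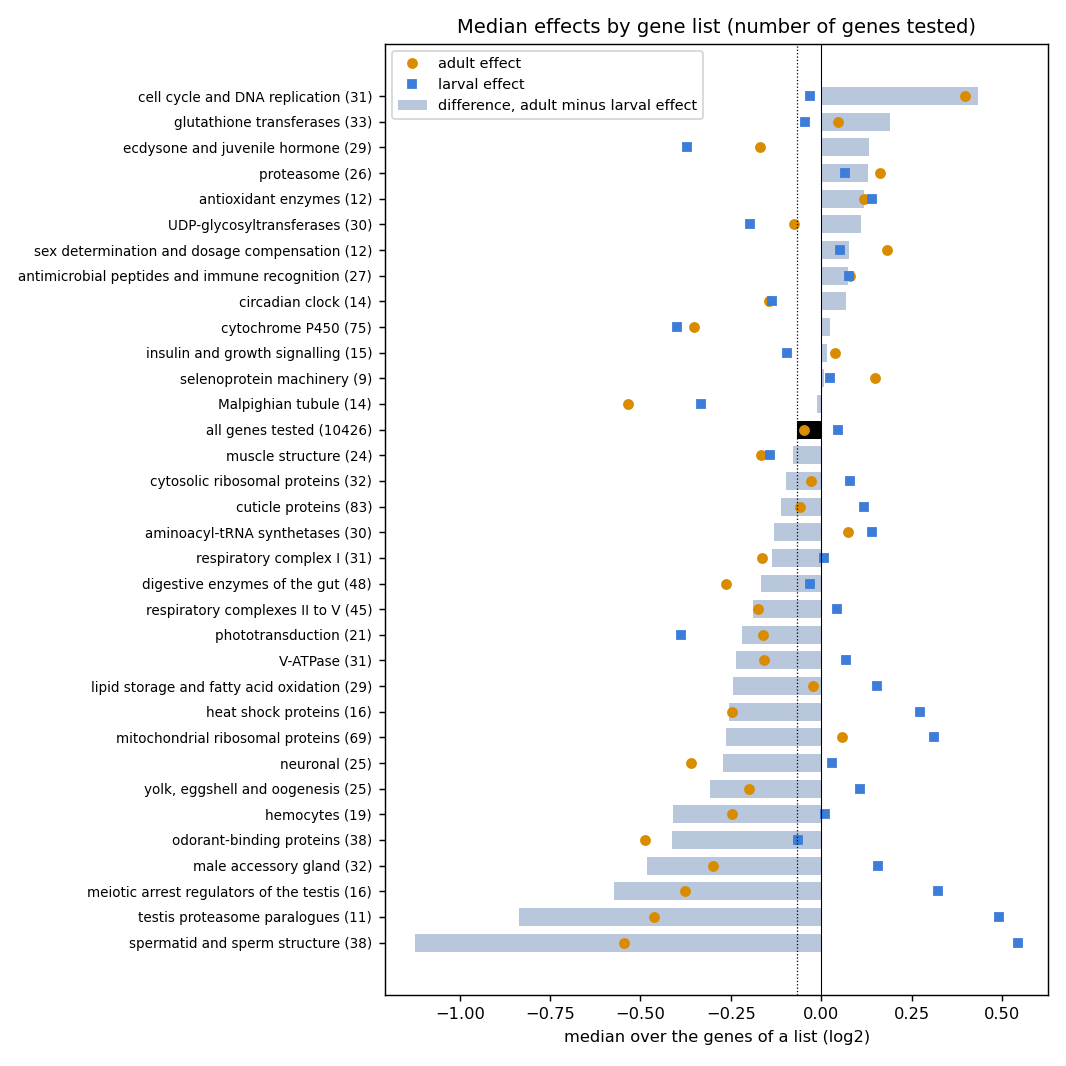
For each gene list with more than 4 genes tested, the bar is the median stage difference, and the circle and square are the median adult and larval effects (log2). The dotted line marks the median difference of all genes, -0.07. Spermatid and sperm structure lies lowest at -1.12 and cell cycle and DNA replication highest at 0.43.

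The 641 genes with a negative difference of at least 2-fold were poorly annotated as a set. Of them 436 (68%) had only an annotation number for a symbol, against 42.7% of all genes tested. Their median adult effect was -0.66 and their median larval effect 0.73, with 144 genes opposite, 183 called only in adults, 230 only in larvae, 19 in the same direction and 65 at neither stage. In larval wild type 180 of them (28.1%) were below the 40th percentile of the array, against 14.5% of all genes, so part of the larval rises start from values with little signal. The 169 positive ones had a median adult effect of 0.40 and a median larval effect of -1.14, 76 had only an annotation number, and 11 were below the 40th percentile in larval wild type.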

How the data were processed

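Each of the 12 arrays had 1 deposited log2 value per probe set. The submitters' processing notes name MAS5 as the authors' tool, without its version. MAS5 scales every array to a common trimmed mean, and the deposited log2 values, taken back to linear signal, had trimmed means of 495 to 499. That scaling leaves the arrays' medians unequal. Their number limits the precision, since 3 arrays stood for each group. Of 18952 probe sets, 183 controls were left out, and a probe set was tested where at least 3 arrays had it at or above their own 40th percentile. Gene symbols came from the platform annotation (13647 probe sets with 1 symbol, 402 with several, 4720 with none). RefSeq's gene table (Release 6 plus ISO1 MT) held 13544 of them and changed 0 symbols. The probe set with the highest mean stood for a gene. There were 0 columns without a sample.

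A single model with 4 group means took in all arrays (lmFit, contrasts.fit and trended eBayes of limma 3.58.1 under R 4.3.3, leaving 8 residual degrees of freedom). Benjamini-Hochberg adjustment ran over all 12827 tested probe sets, and a result was called at an adjusted p under 0.05. Every effect and difference is in log2 units, with n = 3 arrays per group, and folds are of linear signal. "Raised values" are those in which any value below its array's 40th percentile was set to it. The fit was tested on simulated arrays with known differences. Where the spread is unequal between stages, as it is here, the share of false calls there was above the nominal one. The simulated differences were few and all in adult knockdown, unlike those called in the data.

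Genes, and the 36 gene lists, were chosen with earlier results of these data known, so no list was tested, and each is described by its counts and median, to be read against those of all genes. Named were the selenoprotein machinery, the 10 largest called differences in each direction among genes with a name and a highest group mean of at least 8.07, the median of all tested probe sets, up to 6 genes with opposite effects in each direction, up to 4 in each direction of unequal size, up to 6 that were close at both stages, and from each list, the 4 called members of lowest adjusted p or as many as there were (the 2 nearest where none was called). In the lists 97 names matched no single gene here and were not used. Well-known members are among them, such as ninaE of phototransduction, Mhc and wupA of muscle, CycA and Cdk1 of the cell cycle, and DptA and AttA of immunity. The labels' replicate numbers did not pair arrays: between arrays of equal number, residuals had r = -0.0889 to 0.0243, and between others -0.0727 to 0.0528. Alternatives covered scaling, filter, floor, variance model, replicate block and each array left out.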

Additional observations from a re-analysis of the deposited data

Results flagged for a closer look

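With 3 arrays per group, no test for outlying arrays was made, although each array was left out in turn. Results were picked out here by the test of the stage difference itself. That test called 2286 genes. Named genes whose effects were called in opposite directions at the 2 stages are given with their difference (adult minus larval effect, log2). Higher in adults and lower in larvae were Lsp2 (8.37), tobi (3.39), PPO1 (1.86), nom (1.60), Lcp65Aa (1.23), tay (1.22), RPA1 (1.09), scramb1 (0.93), NTPase (0.85), SREBP (0.82), Cdc6 (0.82), CtsK1 (0.80), Ugt316A1 (0.70), Sod3 (0.66), GstD1 (0.52), cact (0.42) and mRpS5 (0.39). Lower in adults and higher in larvae were Had2 (-2.92), Pepck2 (-2.48), Obp83cd (-1.83), Hsp68 (-1.61), COX7AL (-1.57), ocn (-1.44), LManII (-1.39), Mst84Dc (-1.26), djl (-1.24), TrxT (-1.23), Cyt-c1L (-1.06), gem (-1.01), GstE9 (-0.997), Idgf2 (-0.95), Mlp60A (-0.35) and VhaSFD (-0.25). Of these, Lcp65Aa was not called (0.30, adjusted p = 0.0911) with low values raised to the 40th percentile. Mlp60A and VhaSFD turned positive when arrays were centred on the median of all probe sets. On that centring opposite genes lower in adults numbered 43, against 208 as deposited, so others listed here may lose the pattern. Dimmer probe sets of GstE9 (-2.90 in adults and -1.78 in larvae), Sod3 (0.11 and 0.49), cact (-0.47 and 0.05) and Mlp60A (1.03 and 0.20) did not show it. That of Lcp65Aa had the same signs (1.16 and -0.55). Causes of these opposite effects were not tested.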

How the results depend on the processing

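Of the 146 named genes with a called difference, 92 kept it under all 23 alternatives. Centring arrays on the median of all probe sets gave 3926 called genes, 3298 positive and 628 negative (4669, 3953 and 716 probe sets), 484 and 320 of at least 2-fold, 406 and 43 opposite genes (higher and lower in adults) and 2265 with only the adult effect called. It turned ND-B14.7 (0.053), ND-18 (0.11), ND-B16.6 (0.11), UQCR-14 (0.11), RpLP0 (0.14), RpL34a (0.15), RpS12 (0.18), RpS30 (0.21), Mlp60A (0.013), Zasp66 (0.064), VhaM9.7-b (0.12), VhaSFD (0.12), ArgRS (0.056) and LysRS (0.0395) positive, and 15 of 36 list medians changed sign. Centring on the tested probe sets, chosen after seeing the data, gave 1456 positive genes (1726 probe sets) and 181 opposite genes higher in adults, and 3 list medians changed sign. Quantile normalization turned Cyp28d1 to 0.80. Raising low values to the 40th percentile gave 2232 negative genes (2577 probe sets) and 1539 with only the adult effect called, and turned Ilp8 to -0.038. Genes with only the larval effect called were 445 with array weights by stage and 430 with each stage fitted alone, also chosen after seeing the data. With 1 array left out, opposite genes numbered 51 to 105 (higher in adults) and 111 to 227 (lower), and adult effects alone 515 to 919. The lowest counts came without adult knockdown replicate 2. The replicate number as a block, although the numbers do not pair arrays, gave 2095 called genes, 792 positive and 1303 negative. Averaging the probe sets of a gene moved list medians by at most 0.09 (muscle structure). The causes of these changes were not tested. Arrays near background, mostly larval for reproductive genes, limit what can be read from low values.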

Other observations

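By chromosome arm, called negative differences made up 10.4% of the tested genes on the X, 15.2% on 2L, 14.8% on 2R, 13.7% on 3L and 14.1% on 3R, and called positive ones 8.02%, 7.68%, 8.37%, 8.41% and 8.25%. Negative differences of at least 2-fold made up 4.65% of X genes and 5.69% to 7.37% on the long autosome arms. On chromosome 4, with 59 genes tested, 4 were negative and 7 positive. The shares are a description, and no test of the arms was made.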
